A study of Mus musculus with 79 samples.

Results

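The adult hypothalamus holds the receptors through which hormones and peptides set appetite, and 10 of their genes are described here: Mc3r, Mc4r, Lepr, Insr, Npy1r, Npy2r, Npy5r, Hcrtr1, Hcrtr2 and Glp1r. They were chosen by name, with earlier results of these data known, and all 10 were found among the 25965 genes of the expression table. Expression was measured by RNA-seq in 5 Dnmt3a +/+ and 4 Δ/D329A mice aged 14 weeks, 1 library per animal. H3K4me3, H3K27me3, H3K36me3 and input chromatin were sequenced from 3 +/+ and 3 Δ/D329A animals of the same age, each animal giving all 4 libraries. Δ is a Dnmt3a allele deleted in the oocyte by a Zp3-driven Cre and inherited from the mother, and D329A, from the father, carries an amino acid change in the PWWP domain, the part of this DNA methyltransferase that reads methylated histone H3. The Δ/D329A animals therefore carried no wild-type copy, and the +/+ animals, from the same crosses, carried neither allele. The labels give no sex. The 9 RNA-seq libraries held 2694 to 7044 reads of Xist, which is expressed from an inactive X, and at most 1 read on 4 Y-linked genes, as in females. The ChIP-seq inputs had 0.416 to 0.431 times the autosomal coverage on the X and 0.0461 to 0.0488 times on the Y, as in males. RNA and histone marks therefore come from different animals, and assay and sex cannot be told apart where both are set side by side. No group with Δ alone enters the comparisons below, so the effect of the point mutation and that of having a single copy of Dnmt3a cannot be told apart. The tissue was whole hypothalamus, of which each immunoprecipitation took 2.5%. In such bulk tissue fewer cells of a type and less RNA per cell cannot be told apart.

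MC4R, and with it MC3R, binds the melanocortin peptides made from POMC and is blocked by AGRP: signalling through MC4R lowers food intake. LEPR carries the signal of the fat hormone leptin to JAK2 and STAT3, and INSR is the receptor tyrosine kinase for insulin. NPY1R and NPY5R mediate feeding driven by neuropeptide Y, while NPY2R sits largely on the terminals of the neurons that release it. HCRTR1 and HCRTR2 are the receptors for the orexins and serve arousal and reward, and GLP1R is the satiety receptor for glucagon-like peptide 1. Most of them are G protein-coupled receptors that restricted groups of neurons express, whereas INSR is found in most cell types. H3K4me3 marks the starts of genes open to transcription, H3K27me3 is laid down by Polycomb repressive complex 2 at genes kept silent, and H3K36me3 builds up over the bodies of transcribed genes. A promoter with H3K4me3 and H3K27me3 at once is called bivalent.

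In the deposited annotation, on build GRCm38, the melanocortin receptor genes were Mc3r at chr2:172248492-172251114 on the plus strand and Mc4r at chr18:66857715-66860472 on the minus strand. The hormone receptor genes were Lepr at chr4:101717404-101815352 on the plus strand, Insr at chr8:3150922-3279617 on the minus strand and Glp1r at chr17:30901867-30936510 on the plus strand. The genes of the Y receptors were Npy1r at chr8:66697422-66706798 on the plus strand, Npy5r at chr8:66679965-66688094 on the minus strand and Npy2r at chr3:82538383-82548086 on the minus strand, and those of the orexin receptors Hcrtr1 at chr4:130130217-130139359 on the minus strand and Hcrtr2 at chr9:76225903-76323578 on the minus strand.

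Gene-assigned reads numbered 5617932 to 9976687 per RNA-seq library of +/+ and 3874084 to 6598737 per library of Δ/D329A. The +/+ replicate 1 library stood apart, with 54.3% of its reads on genes against 33.3% to 46.2% in the other 8. Over the 17839 genes tested with limma, 15 were higher and 4 lower in Δ/D329A, or 0.107% called at an adjusted p under 0.01; this became 16 higher and 16 lower with quantile normalization, 22 and 12 with median centring, 40 and 37 with edgeR and 133 and 118 with DESeq2. Dnmt3a itself was at 3.28 to 4.31 RPKM in +/+ and at 2.84 to 3.30 RPKM in Δ/D329A. This does not check the genotype, because a point mutation leaves the transcript in place and gene-level values do not separate the Δ allele. Hypothalamic marker genes were present, 24 of 24 passing the filter. None of the 24 passed the limma test, 5 of them (Pomc, Cartpt, Kiss1, Sim1 and Lhx1) were lower at an unadjusted p under 0.05 and none was higher, and their summed level ranged from 443 to 927 RPKM in +/+ and from 495 to 722 RPKM in Δ/D329A. Of 8 thalamic marker genes none was called and 5 were higher at that unadjusted threshold, with a summed level of 58.6 to 95.7 RPKM in +/+ and 85.1 to 121 RPKM in Δ/D329A. At the same threshold 2 of 6 cortical and 2 of 6 striatal marker genes were higher, 1 of 8 astrocyte and 1 of 8 microglia genes were higher, 1 of 9 choroid plexus genes was higher and 1 lower, 1 of 7 hippocampal genes was higher and 2 were lower, and 1 of 8 tanycyte and 1 of 8 oligodendrocyte genes were lower. Meninges, endothelial and anterior pituitary lists had none. Of all 17839 genes tested, 1360 were under this threshold in either direction, of which 538 were lower in Δ/D329A. The authors' own DESeq analysis named Cartpt among its downregulated genes. The part of tissue composition in the receptor values was not tested. The ChIP-seq libraries held between 12676361 and 30207875 mapped reads, and the Δ/D329A replicate 1 library of H3K4me3 stood apart with a median of 5 reads per tile against 1 to 3 in the other 5.

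Over the 9 libraries Insr had the highest mean of the receptor transcripts, and Mc4r the lowest. In Δ/D329A alone the mean of Hcrtr1 (0.505 RPKM) lay just below that of Mc4r (0.506 RPKM). RPKM, reads scaled to exon length and library size, allows levels of different genes to be compared, and the mean over the 9 libraries ran from 5.15 RPKM for Insr through 3.66 for Npy2r, 2.57 for Npy1r, 1.52 for Glp1r, 1.47 for Hcrtr2, 1.13 for Npy5r, 0.827 for Mc3r, 0.691 for Hcrtr1 and 0.646 for Lepr to 0.583 for Mc4r. Insr was thus above 71.3% of the genes tested, whereas Mc4r was above 28.5%. Insr exceeded Npy2r, Npy2r exceeded Npy1r and Npy1r exceeded Glp1r in 9 of 9 libraries. Below these the order was not fixed. Glp1r was above Hcrtr2 in 6 of 9 libraries, Mc3r above Hcrtr1 in 5, Hcrtr1 above Lepr in 4 and Lepr above Mc4r in 6. Over the 9 libraries these neighbours did not differ beyond their spread. The order of Glp1r and Hcrtr2 differed by genotype, with means of 1.46 and 1.68 RPKM in +/+ and 1.59 and 1.22 RPKM in Δ/D329A. Low levels rested on few reads. Each library held 10 to 55 reads of Mc4r and 10 to 72 of Hcrtr1, against 481 to 1102 of Insr.

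**Figure D1:**
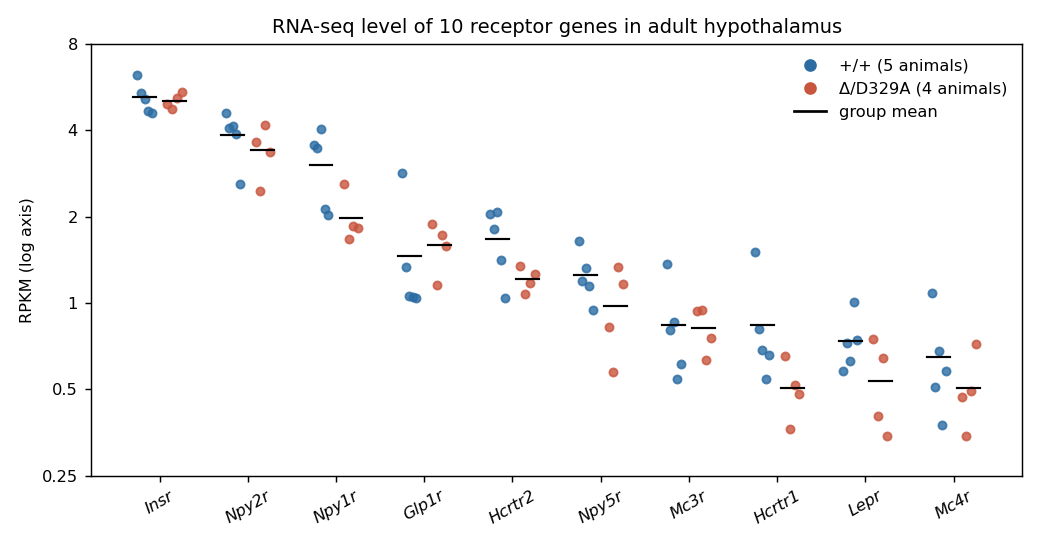
RNA-seq level in RPKM on a log axis for the 10 receptor genes, ordered by their mean, with 1 point per animal (5 +/+, 4 Δ/D329A) and a bar at each group mean. The genotypes overlap for every gene, and 8 of the 10 genes have a lower log2 mean in Δ/D329A.

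None of the 10 receptor transcripts passed the limma test between the genotypes, where 0.107% of all genes did. Of the 10, 8 genes, all but Mc3r and Glp1r, had a negative log2 difference (Δ/D329A minus +/+), against 40.4% of all genes tested, of which 1724 had no read in any library, and 46.1% of the 15566 with a read in at least 4 libraries. The median difference over the 10 genes was −0.36, beside 0.06 over all genes tested. It was −0.20 without +/+ replicate 1, with 7 genes negative, and −0.16 without Δ/D329A replicate 2, beside 0.17 and 0.13 over all genes. With a pseudocount of 0.5 RPKM it was −0.22, beside 0.04. Npy1r and Hcrtr1 were lower at an unadjusted p under 0.05, as were 3.02% of all genes, and in no receptor gene were the genotypes separate, where 3.0% of all genes had groups that did not overlap. With edgeR and with DESeq2 on the recovered reads no receptor gene passed either. At an unadjusted p under 0.05 in either direction there were 3 receptor genes with each tool, beside 2256 of all 13890 genes with edgeR and 2297 of 16094 with DESeq2.

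Npy1r, the postsynaptic receptor for neuropeptide Y, was at 3.55, 3.47, 4.03, 2.12 and 2.03 RPKM in the 5 +/+ libraries and at 2.59, 1.68, 1.85 and 1.82 RPKM in the 4 Δ/D329A libraries. Of the +/+ animals 3 were above every Δ/D329A animal, and the remaining 2 lay among them. The log2 difference was −0.58 (SE 0.24, limma adjusted p = 0.355), and DESeq2 on recovered reads gave it an adjusted p of 0.0451, short of the threshold of 0.01. Npy5r, which starts 9328 bp away on the opposite strand, ranged from 0.949 to 1.65 RPKM in +/+ and from 0.575 to 1.33 RPKM in Δ/D329A. Its log2 difference was −0.41 (SE 0.26, limma adjusted p = 0.542), −0.18 without Δ/D329A replicate 2 and −0.26 with a pseudocount of 0.5 RPKM. Npy2r, the presynaptic receptor, ranged from 2.59 to 4.61 RPKM in +/+ and from 2.46 to 4.18 RPKM in Δ/D329A. Its log2 difference of −0.17 (SE 0.21) was −0.03 without Δ/D329A replicate 2, −0.10 without +/+ replicate 1, −0.28 without Δ/D329A replicate 3 and −0.31 without +/+ replicate 5.

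Hcrtr1 was at 1.502, 0.809, 0.688, 0.544 and 0.660 RPKM in +/+ and at 0.655, 0.365, 0.519 and 0.482 RPKM in Δ/D329A, with +/+ replicate 1 far above the rest. The log2 difference was −0.67 (SE 0.30, limma adjusted p = 0.355), −0.44 without +/+ replicate 1 and −0.38 with a pseudocount of 0.5 RPKM. Hcrtr2 was at 2.04, 1.81, 2.08, 1.41 and 1.04 RPKM in +/+ and at 1.35, 1.08, 1.18 and 1.26 RPKM in Δ/D329A. Of the 5 +/+ animals 4 exceeded all Δ/D329A animals, and the log2 difference was −0.42 (SE 0.22, limma adjusted p = 0.391).

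Lepr was at 0.579, 0.726, 0.625, 1.01 and 0.741 RPKM in +/+ and at 0.746, 0.405, 0.641 and 0.344 RPKM in Δ/D329A. Of the Δ/D329A animals 2 were below every +/+ animal and the rest lay among them. The log2 difference was −0.51 (SE 0.27, limma adjusted p = 0.399), −0.32 without Δ/D329A replicate 4 and −0.27 with a pseudocount of 0.5 RPKM. Leprot, whose product limits how much LEPR reaches the cell surface, starts 69686 bp before Lepr on the same strand, and its log2 difference was −0.40 (SE 0.28, limma adjusted p = 0.603). Insr was at 6.22, 5.42, 5.16, 4.67 and 4.59 RPKM in +/+ and at 4.94, 4.75, 5.19 and 5.42 RPKM in Δ/D329A. Its log2 difference was −0.03 (SE 0.13), with a 95% confidence interval from −0.32 to 0.26, the narrowest of the 10.

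The highest value of 7 of the 10 genes (Mc3r, Mc4r, Insr, Npy2r, Npy5r, Hcrtr1 and Glp1r) came from the +/+ replicate 1 library. Mc4r was at 1.08, 0.510, 0.677, 0.374 and 0.581 RPKM in +/+ and at 0.471, 0.345, 0.491 and 0.717 RPKM in Δ/D329A. Its log2 difference was −0.31 (SE 0.32), −0.099 without +/+ replicate 1 and −0.14 without Δ/D329A replicate 2. Without +/+ replicate 4 it was −0.48, without Δ/D329A replicate 4 −0.49, and with a pseudocount of 0.5 RPKM −0.17. Mc3r ranged from 0.541 to 1.37 RPKM in +/+ and from 0.631 to 0.942 RPKM in Δ/D329A, a log2 difference of 0.02 (SE 0.27) that was negative under quantile normalization and with edgeR and DESeq2. Glp1r was at 2.83, 1.34, 1.06, 1.05 and 1.04 RPKM in +/+ and at 1.89, 1.16, 1.73 and 1.58 RPKM in Δ/D329A. Without +/+ replicate 1 the Glp1r groups still overlapped, with 1 Δ/D329A animal inside the +/+ range, and the log2 difference rose from 0.22 (SE 0.31) to 0.49 with a limma adjusted p of 0.371. It was 0.13 without +/+ replicate 3, 4 or 5 or without Δ/D329A replicate 1, and 0.36 without Δ/D329A replicate 2. Both edgeR and DESeq2 gave 0.14.

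The receptor promoters had a chromatin feature in common. H3K27me3 lay above input at 9 of 10 and H3K4me3 at 10 of 10, so that 9 of 10, all but Insr, carried both marks, by limma with the animal as a block (adjusted p under 0.05). Of all promoters, 58.7% had H3K4me3 above input, 26.8% had H3K27me3 above input and 12.1% had both. In bulk tissue, marks on the same chromosome and marks in different cells cannot be told apart. These counts of receptor genes were the same with a pseudocount of 0.5, in +/+ animals only, without the animal block and without each animal in turn. Sequences of 250 bases before the RefSeq start (build GRCm38.p6) were matched for 8 of the 10, all but Mc4r and Insr, and held between 4 CG dinucleotides (Hcrtr2) and 26 (Glp1r). The motif searched was CG, which reads the same on both strands: 92.1% of all 32851 listed promoters hold at least 1, and their median is 6. The sequences of 4 are shown with CG in capitals, because they span the range of CG content: Glp1r with the highest mean H3K27me3 over the 6 animals, Npy2r with high levels of both marks, Lepr with the genotype difference described below and Hcrtr2 with few CG before its start.
Glp1r, chr17:30901617-30901866, plus strand: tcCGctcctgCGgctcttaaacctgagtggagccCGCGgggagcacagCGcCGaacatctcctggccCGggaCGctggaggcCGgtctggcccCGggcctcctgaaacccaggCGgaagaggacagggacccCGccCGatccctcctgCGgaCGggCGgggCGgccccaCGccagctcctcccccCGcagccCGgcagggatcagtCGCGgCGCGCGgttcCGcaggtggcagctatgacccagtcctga
Npy2r, chr3:82548086-82548335, minus strand: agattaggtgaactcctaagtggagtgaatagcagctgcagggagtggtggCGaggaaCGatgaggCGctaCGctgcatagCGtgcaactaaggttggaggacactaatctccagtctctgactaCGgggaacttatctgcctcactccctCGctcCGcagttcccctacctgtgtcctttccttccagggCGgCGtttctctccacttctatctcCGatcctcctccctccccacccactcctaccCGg
Lepr, chr4:101717157-101717406, plus strand: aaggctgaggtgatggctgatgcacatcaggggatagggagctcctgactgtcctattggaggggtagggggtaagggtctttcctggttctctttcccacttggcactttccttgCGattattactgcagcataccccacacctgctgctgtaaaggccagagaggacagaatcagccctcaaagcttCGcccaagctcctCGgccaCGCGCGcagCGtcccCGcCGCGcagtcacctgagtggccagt
Hcrtr2, chr9:76323624-76323873, minus strand: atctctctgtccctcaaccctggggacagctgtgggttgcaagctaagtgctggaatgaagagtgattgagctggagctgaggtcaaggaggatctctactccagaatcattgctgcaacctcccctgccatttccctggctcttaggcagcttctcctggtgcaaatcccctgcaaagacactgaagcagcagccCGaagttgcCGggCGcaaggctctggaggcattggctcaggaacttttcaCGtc
Glp1r held more CG than 90.4% of the listed promoters, Npy2r (12) more than 66.5%, Lepr (10) more than 62.2% and Hcrtr2 (4) more than 37.8%.

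Signals are given as RPM, reads in a tile of 2000 bp scaled to the mapped reads of the library, averaged over the tiles centred from 1500 bp before to 500 bp after the start. Insr stood apart, with H3K4me3 of 18.6, 17.2 and 19.4 RPM in +/+ and 14.2, 21.1 and 20.1 RPM in Δ/D329A, 20.4 times input. Its H3K27me3 was 0.0944, 0.120 and 0.0992 RPM in +/+ and 0.101, 0.210 and 0.102 RPM in Δ/D329A, 0.242 times input, and so below input in 6 of 6 animals. Leprot resembled Insr, at 28.0 times input for H3K4me3 and 0.268 times for H3K27me3, whereas Lepr did not.

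At the other 9 promoters H3K27me3 was between 2.18 and 5.02 times input and above it in 6 of 6 animals. Glp1r had the highest mean over the 6 animals, though in Δ/D329A the mean of Npy2r (4.51 RPM) was above that of Glp1r (4.4 RPM). Glp1r was at 3.90, 4.26 and 4.81 RPM in +/+ and 4.34, 3.76 and 5.10 RPM in Δ/D329A, where input was 0.612 to 0.949 RPM. Hcrtr2 had the lowest mean, with 2.30, 1.77 and 1.26 RPM in +/+ and 1.65, 3.09 and 2.18 RPM in Δ/D329A, where input was 0.579 to 0.986 RPM. In their mean H3K27me3 the 9 promoters lay above 89.7% (Hcrtr2) to 97.6% (Glp1r) of all promoters.

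H3K4me3 spanned a wider range among the same 9 promoters, from 2.07 times input for Mc3r to 13.4 times for Npy2r. Mc4r was at 13.2 times input, Npy5r at 10.6, Hcrtr1 at 9.64, Npy1r at 8.87, Hcrtr2 at 6.55, Glp1r at 5.74 and Lepr at 3.40. Mc4r, the transcript with the lowest mean RPKM over the 9 RNA-seq libraries, had a mean promoter H3K4me3 of 13.6 ± 2.16 RPM. That of Npy1r was 10.1 ± 1.80 RPM (SD, n = 3 +/+ animals), and the values of the animals overlapped. Lepr had 5.18 ± 0.439 RPM and Mc3r 1.81 ± 0.688 RPM (SD, n = 3 +/+ animals). Levels of a mark depend on the antibody and the sequence under it, so the order is one of signal and not of the share of cells marked.

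**Figure D2:**
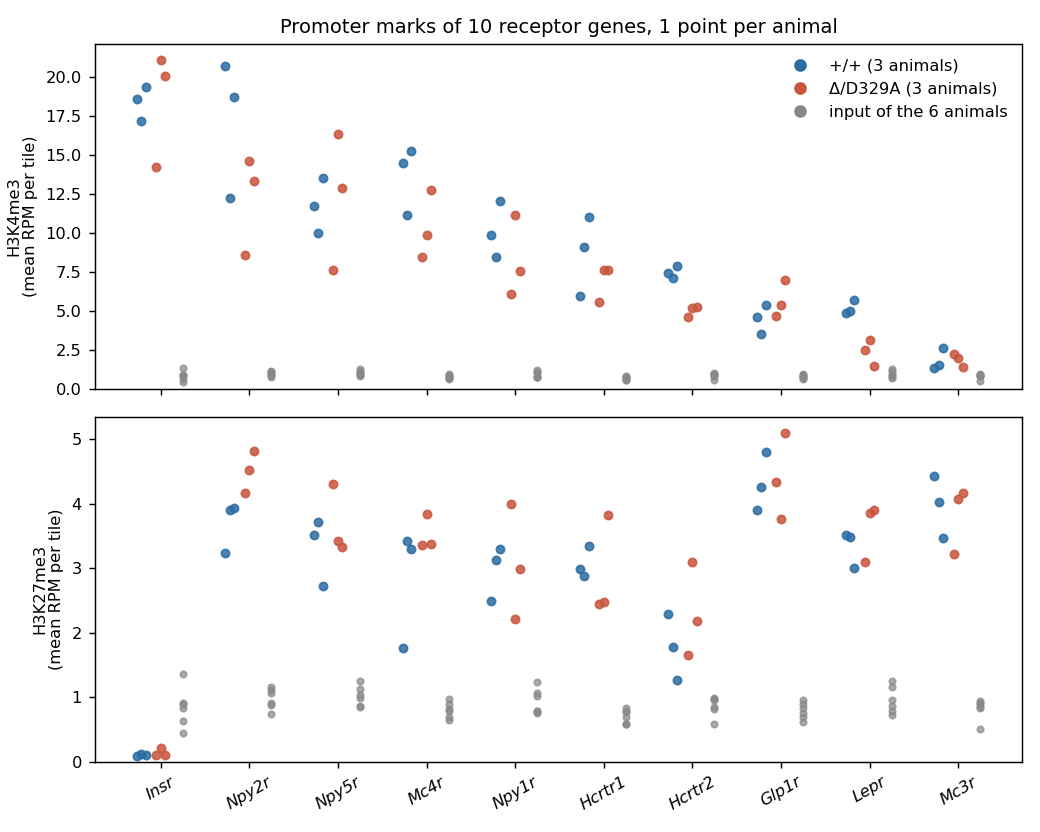
Mean H3K4me3 (top) and H3K27me3 (bottom) per tile at the 10 promoters, in RPM, ordered by H3K4me3, with 1 point per animal (3 +/+, 3 Δ/D329A) and the input of the 6 animals in grey. Insr, at the left, has no H3K27me3 above input, and at the other 9 genes H3K27me3 lies between 1.26 and 5.10 RPM.

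Tile by tile, H3K4me3 peaked at the start or downstream of it. The highest tile within 5 kb was centred on the start (0 kb) for Mc4r, Npy2r, Npy5r, Hcrtr1 and Glp1r, 1 kb after it for Lepr, Insr, Npy1r and Hcrtr2, and 3 kb after it, beyond the end of the short gene, for Mc3r. In that Mc3r tile H3K4me3 was 3.10, 3.53 and 7.03 RPM in +/+ and 6.90, 7.02 and 6.20 RPM in Δ/D329A, above the values of its promoter window in every animal. H3K27me3 reached furthest at Mc3r, where 25 tiles in a row, from 18 kb before to 6 kb after the start, exceeded the input of the same animal in all 6 animals. Such runs held 18 tiles at Hcrtr1, 16 at Mc4r, between 5 and 7 at Lepr, Npy1r, Npy2r, Npy5r, Hcrtr2 and Glp1r, and none at Insr. Tiles overlap their neighbours by 1000 bp and are not independent.

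**Figure D3:**
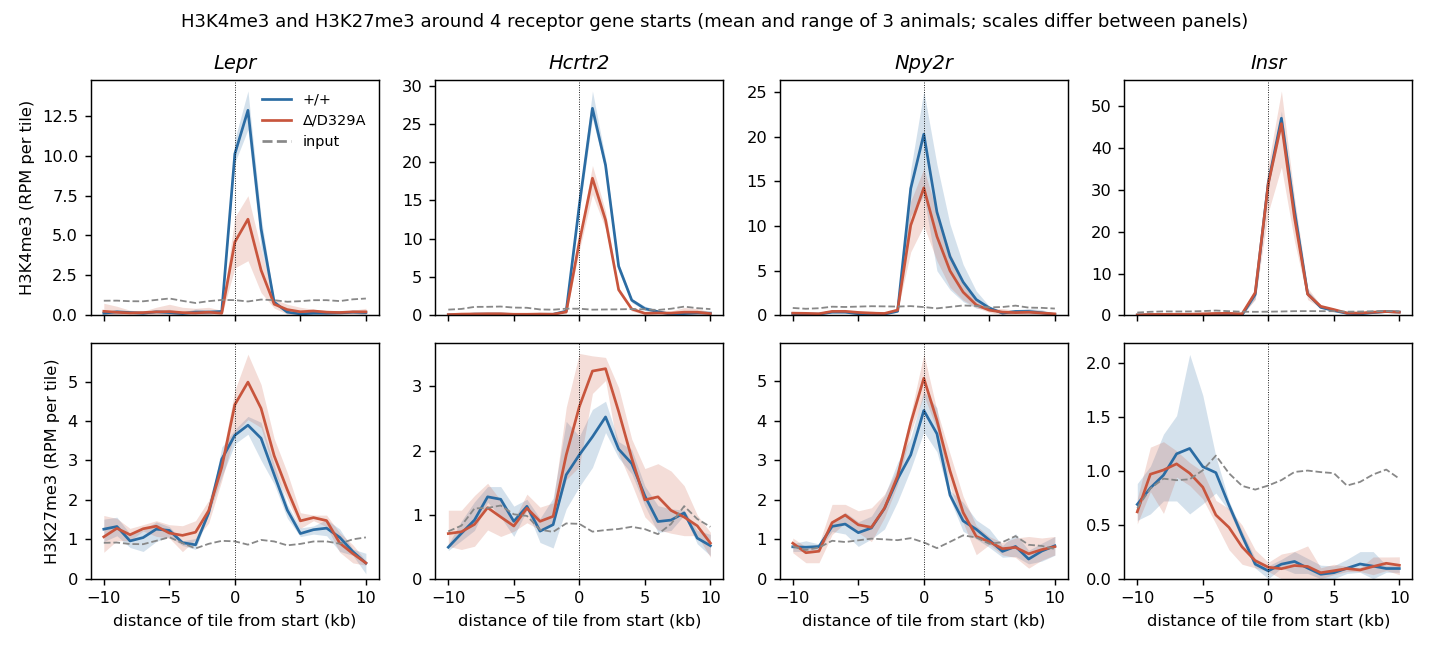
H3K4me3 (top) and H3K27me3 (bottom) in RPM per tile against the distance of the tile from the annotated start in kb, for Lepr, Hcrtr2, Npy2r and Insr; lines are means of 3 animals, bands their range and the dashed line the mean input. At Lepr the H3K4me3 peak is at 12.8 RPM in +/+ and 6.02 RPM in Δ/D329A, with H3K27me3 above input in both, and at the start of Insr only H3K4me3 rises above input. The scales differ between panels.

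Between the genotypes, Lepr was the only receptor gene whose promoter passed the test for H3K4me3. It was at 4.87, 4.99 and 5.68 RPM in +/+ and at 2.48, 3.12 and 1.48 RPM in Δ/D329A. Every Δ/D329A animal was below every +/+ animal, and the mark fell by 1.16 on the log2 scale (SE 0.28, limma adjusted p = 0.00691). Of all promoters 0.816% were called in either direction, 40 higher and 167 lower, which became 24 higher and 39 lower with median centring, when the median difference of all promoters moved from −0.07 to 0.13. In the tile with the Lepr peak the values were 12.8, 11.6 and 14.1 RPM in +/+ and 7.15, 7.49 and 3.42 RPM in Δ/D329A. Such tiles were picked as the highest and are given as a description. The call was lost with median centring (adjusted p = 0.115), as a ratio to input (0.184) and without +/+ replicate 1 (0.130), +/+ replicate 2 (0.133), +/+ replicate 3 (0.281) or Δ/D329A replicate 3 (0.433), the limma adjusted p over the other settings tried being at most 0.0225. The log2 difference stayed between −1.38 and −0.87 throughout.

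Hcrtr2 followed, with H3K4me3 of 7.43, 7.08 and 7.88 RPM in +/+ and 4.58, 5.21 and 5.26 RPM in Δ/D329A. The groups did not overlap, but the log2 difference of −0.57 (SE 0.23) was not called (limma adjusted p = 0.680). In its peak tile the levels were 26.1, 25.7 and 29.3 RPM in +/+ and 15.8, 19.6 and 18.3 RPM in Δ/D329A. Non-overlapping groups were thus seen for 2 of 10 receptor promoters (Lepr and Hcrtr2), where 6.19% of all promoters had them. Npy2r was at 20.7, 12.2 and 18.7 RPM in +/+ and 8.56, 14.6 and 13.3 RPM in Δ/D329A, a log2 difference of −0.50 (SE 0.20, limma adjusted p = 0.614) that was called without Δ/D329A replicate 2 (adjusted p = 0.0427) and with a block for mitochondrial reads (0.00371). It was −0.27 without Δ/D329A replicate 1. The lowest H3K4me3 value of Npy2r, Mc4r, Npy1r, Npy5r, Hcrtr1, Hcrtr2 and Insr came from Δ/D329A replicate 1, the library that stood apart, whereas the lowest of Lepr came from Δ/D329A replicate 3.

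Of the 10 promoters, 7 had a negative H3K4me3 difference, with a median of −0.31 beside −0.07 over all promoters. The median was −0.13 without Δ/D329A replicate 1, beside 0.04 over all promoters, −0.15 without +/+ replicate 3, beside −0.05, −0.11 with median centring, beside 0.13, and −0.47 with the mitochondrial block, beside −0.14. Mc4r was at 13.6 ± 2.16 RPM in +/+ and 10.4 ± 2.19 RPM in Δ/D329A (SD, n = 3 each). For Npy1r the means were 10.1 ± 1.80 and 8.28 ± 2.61 RPM and for Hcrtr1 8.71 ± 2.55 and 6.95 ± 1.18 RPM, with overlap of the groups. Leaving out each animal, the log2 difference ran from −0.56 to −0.26 for Mc4r (all animals −0.40). It ran from −0.56 to −0.12 for Npy1r (−0.32) and from −0.54 to −0.10 for Hcrtr1 (−0.29). The log2 differences of Insr (−0.01), Npy5r (0.01) and Mc3r (0.08) were smaller than their SE, and Glp1r had a log2 difference of 0.33 (SE 0.25) that was 0.17 without +/+ replicate 2 or without Δ/D329A replicate 3, 0.20 with the mitochondrial block and 0.073 as a ratio to input, and 0.53 with median centring.

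H3K27me3 at the receptor promoters was not called for any gene, against 0.885% of all promoters, and none had an unadjusted p under 0.05. Of the 10, 8 had a positive difference and the median was 0.13, beside −0.03 over all promoters. As a ratio to input and in the other window, centred on the start, 6 of the 10 were positive, and the median was 0.075 and 0.082. Npy2r was the one whose groups did not overlap, with 3.24, 3.90 and 3.94 RPM in +/+ and 4.17, 4.53 and 4.82 RPM in Δ/D329A, where 13.8% of all promoters had such groups; its log2 difference was 0.28 (SE 0.15, limma adjusted p = 0.579). The tile with the highest H3K27me3 at Npy2r was at 3.71, 4.74 and 4.31 RPM in +/+ and 4.64, 4.89 and 5.69 RPM in Δ/D329A, and that of Hcrtr2, 2 kb after the start, at 2.77, 2.52 and 2.28 RPM in +/+ and 3.09, 3.29 and 3.45 RPM in Δ/D329A. These tiles, too, were picked as the highest, and no share of all genes stands beside them. Mc4r was at 1.76, 3.42 and 3.30 RPM in +/+ and 3.36, 3.84 and 3.38 RPM in Δ/D329A, with the +/+ replicate 1 library apart from the other 5. Lepr, whose H3K4me3 fell, was at 3.52, 3.48 and 3.0 RPM in +/+ and 3.09, 3.86 and 3.91 RPM in Δ/D329A. Its log2 difference was 0.11, with a 95% confidence interval from −0.22 to 0.44. The difference ran from 0.038 to 0.22 leaving out each animal, and was 0.30 in the other window.

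H3K36me3 over the gene body, from 500 bp after the start to the gene's end, was above input for Insr (1.89 times) and Npy1r (1.21 times), which are 2 of 10 where 42.3% of all genes were. For Lepr and Npy5r it could not be told from input, and for Mc3r, Mc4r, Npy2r, Hcrtr1, Hcrtr2 and Glp1r it was below input, down to 0.284 times for Mc3r. The bodies of the short genes Mc3r and Mc4r held only 3 and 2 tiles, next to the start. They had 7 to 21 and 11 to 22 reads per library. The call of Npy1r was lost without +/+ replicate 1, without +/+ replicate 3 and without Δ/D329A replicate 2. No gene in the whole table was called for H3K36me3 between the genotypes by limma (0% called; 3603 of 23444 genes had an unadjusted p under 0.05), so no receptor gene was either, and 3 had an unadjusted p under 0.05.

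These 3 were Lepr, Insr and Glp1r, whose groups did not overlap, as in 22.2% of all genes. Lepr was at 0.803, 0.898 and 0.850 RPM in +/+ and 0.757, 0.634 and 0.643 RPM in Δ/D329A, a log2 difference of −0.29 (SE 0.09, limma adjusted p = 0.254). Insr was at 1.91, 1.97 and 1.88 RPM in +/+ and 1.72, 1.78 and 1.72 RPM in Δ/D329A, a log2 difference of −0.14 (SE 0.05, limma adjusted p = 0.265). Glp1r went the other way, with 0.311, 0.367 and 0.348 RPM in +/+ and 0.570, 0.396 and 0.515 RPM in Δ/D329A, a log2 difference of 0.42 (SE 0.14, limma adjusted p = 0.271). The Glp1r signal was 0.477 times input.

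**Figure D4:**
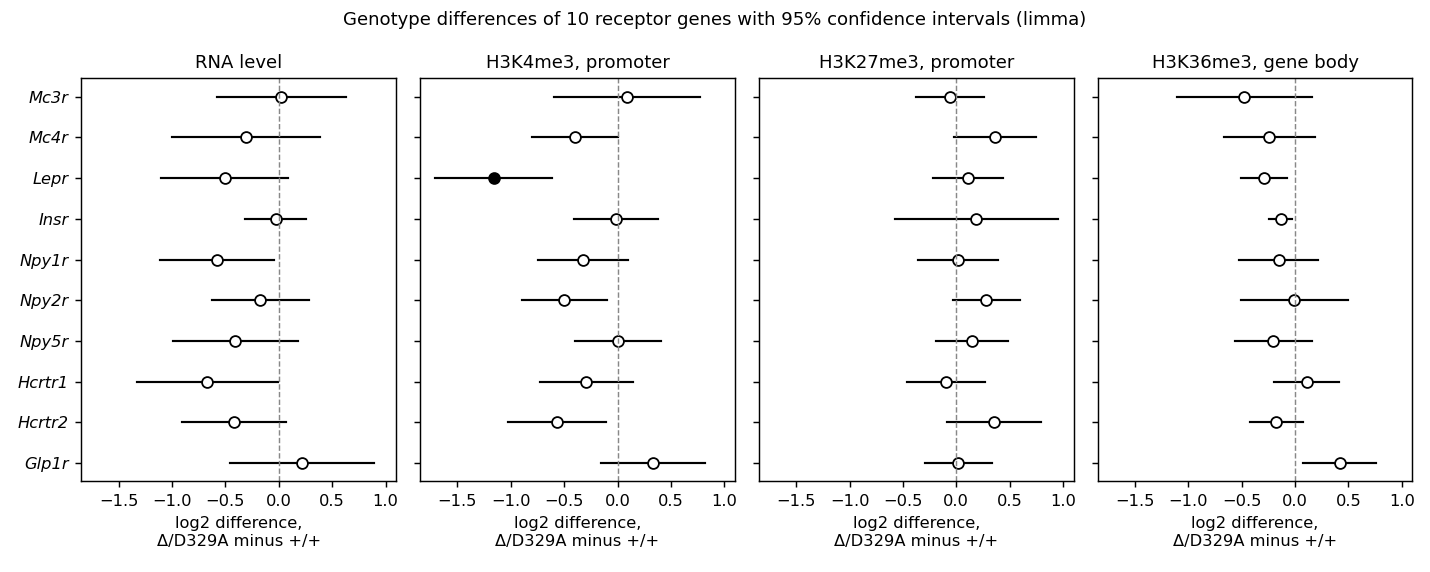
Log2 difference, Δ/D329A minus +/+, of each receptor gene with its 95% confidence interval from limma, for the RNA level, promoter H3K4me3, promoter H3K27me3 and gene body H3K36me3; filled points passed the test. The filled point is the H3K4me3 of Lepr, at −1.16.

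In the remaining windows no receptor gene was called. H3K4me3 over gene bodies was called for 0.0214% of all genes, H3K27me3 over gene bodies for 0.00426% and H3K36me3 at promoters for 0.0314%. Hcrtr2 had 0.865, 0.880 and 0.845 RPM of H3K4me3 over its body in +/+ and 0.671, 0.550 and 0.528 RPM in Δ/D329A, without overlap, as in 6.71% of all genes (log2 difference −0.50, SE 0.14, limma adjusted p = 0.646). This window holds the peak tile 1 kb after the start, so the difference is not separate from that at the peak. The mean over the window was above input in 1 animal only. Insr had 0.112, 0.128 and 0.116 RPM of H3K27me3 over its body in +/+ and 0.0730, 0.0880 and 0.0913 RPM in Δ/D329A, without overlap, as in 19.8% of all genes. Npy5r had 0.219, 0.332 and 0.288 RPM of H3K36me3 at its promoter in +/+ and 0.0974, 0.172 and 0.184 RPM in Δ/D329A, without overlap, as in 11.9% of all promoters, on 4 to 14 reads per library.

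Promoter marks were also counted for genes that act with these receptors, without a test between the lists. Among 39 genes listed as other receptors for appetite signals, such as the ghrelin receptor Ghsr, 30 promoters had H3K27me3 above input and 21 had both marks. The list includes the receptor accessory genes Ramp1, Ramp2 and Ramp3, each with both marks. Of 27 genes of leptin and insulin signalling 5 had H3K27me3 above input and 24 had H3K4me3, and of 25 G protein signalling genes 4 had H3K27me3 and 24 had H3K4me3. Of 12 genes for ligand processing and receptor accessory proteins 3 had H3K27me3 above input. Among 10 ligand genes 5 had H3K27me3 and 3 had H3K4me3. Pomc, for instance, had H3K27me3 of 3.40 RPM and 0.532 RPM of H3K4me3 over the 6 animals, without H3K4me3 above input. Cell type marker lists ran from 37.5% (oligodendrocytes and anterior pituitary) to 87.5% (tanycytes) of promoters with H3K27me3 above input. Of 24 hypothalamic neuron markers 19 had it and 12 had both marks.

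**Figure D5:**
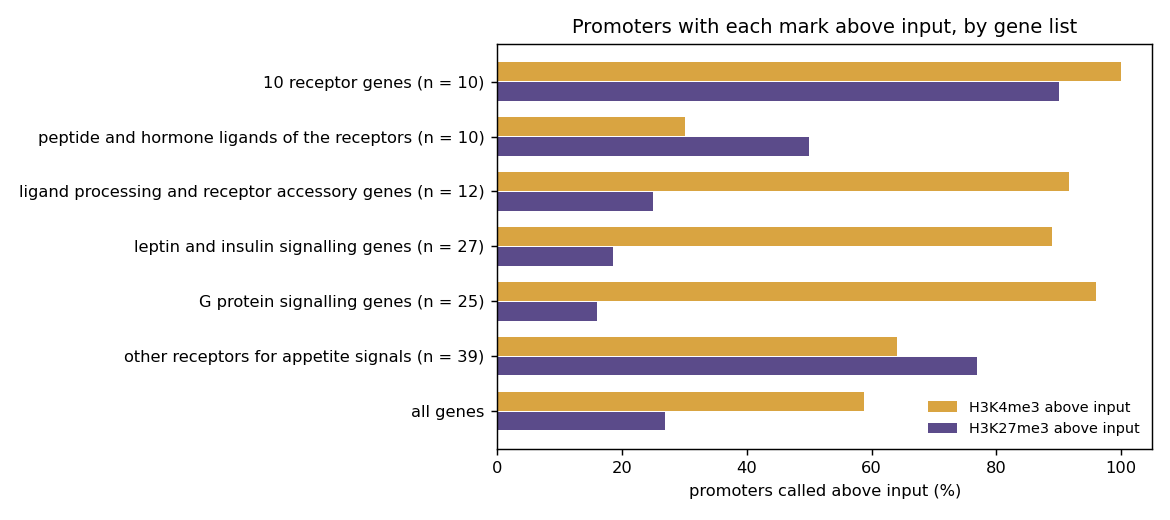
Share of promoters, in percent, with H3K4me3 (yellow) and H3K27me3 (purple) above input for the 10 receptor genes, the 5 lists of genes that act with them and all genes. H3K27me3 is at 90.0% for the receptor genes and 76.9% for the list of other receptors, which includes Ramp genes. It is at 16.0% and 18.5% for the intracellular signalling lists, beside 26.8% of all genes.

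In expression, no gene of these 5 lists was called by limma. From the list of other receptors, with its Ramp genes, 28 were tested. Of these, 2 had an unadjusted p under 0.05 in each direction, where 1360 of all 17839 genes had one in either direction. The median log2 difference was 0.04, beside −0.36 for the 10 receptor genes. Ramp3, which makes the calcitonin receptor respond to amylin, was at 1.40 to 3.95 RPM in +/+ and 6.60 to 14.0 RPM in Δ/D329A, without overlap, a log2 difference of 1.86 (SE 0.31, limma adjusted p = 0.0497) that did not reach the threshold of 0.01. Ghsr, the receptor for the hunger hormone ghrelin, was at 0.698 to 1.44 RPM in +/+ and 0.365 to 0.560 RPM in Δ/D329A, without overlap (log2 difference −1.02, SE 0.25, limma adjusted p = 0.235). It was not called here, but the authors' own DESeq analysis named it, like Cartpt, among the downregulated genes. Oprk1, the kappa opioid receptor, was at 1.77 to 2.53 RPM in +/+ and 1.22 to 1.52 RPM in Δ/D329A, also without overlap (log2 difference −0.66, SE 0.16, limma adjusted p = 0.234). Ramp3, Ghsr and Oprk1 were named for having the smallest p-values of their list, which favours separate groups. Of all genes tested, 3.0% had groups that did not overlap.

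Of 6 ligand genes tested, 2 were higher and 1 lower at an unadjusted p under 0.05. The lower was Pomc, the precursor of the melanocortin peptides, with a log2 difference of −1.06 (SE 0.45, limma adjusted p = 0.355) and 9.60 to 34.7 RPM in +/+ and 2.83 to 10.6 RPM in Δ/D329A. The higher 2, Pyy and Ppy, had 1 read each, in 1 library of 9, so their differences largely reflect the value given to genes without a read. Among 11 genes for processing and accessory proteins the smallest p-values were those of Pcsk1, which cleaves POMC (−0.42, SE 0.22), Mrap2, which binds MC4R (−0.29, SE 0.16), and Pcsk2 (0.27, SE 0.19). Among the 27 genes of leptin and insulin signalling they included those of Pik3cb (0.42, SE 0.14) and Jak2 (−0.30, SE 0.14), and among 25 G protein signalling genes they were those of Adcy1 (0.77, SE 0.22), Kcnj6 (0.39, SE 0.15) and Arrb2 (0.33, SE 0.19), all log2 differences with a limma adjusted p of at least 0.355. At promoters, Npy was lower in H3K4me3 (log2 difference −1.49, limma adjusted p = 2.74e-05) and Ramp2 was higher in H3K27me3 (0.82, limma adjusted p = 0.0184), and no other gene of the 5 lists was called for either mark.

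Across the 9 libraries some receptor transcripts varied together. Npy1r and Hcrtr2 had a Pearson r of 0.94 and Npy2r and Npy5r of 0.84, whereas the 4 lowest values, from −0.20 to −0.39, all involved Lepr. For the 4 genes with the widest spread, the most similar profiles among 11506 genes were those of Lemd3 (r = 0.99), 5430405H02Rik and C1qtnf5 for Hcrtr1, of Iah1 (0.97), Siae and Rufy2 for Mc4r, of Aldh7a1 (0.97), Spg7 and Mrpl37 for Glp1r, and of 2810407C02Rik (0.98), Bbx and Zc3h12b for Npy1r. These correlations describe 9 libraries that differ in their share of reads on genes and in genotype.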

How the data were processed

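The authors deposited log2 RPKM per gene for RNA-seq and, for ChIP-seq, a signal in RPM (reads scaled to library size) in tiles of 2000 bp every 1000 bp, without input subtraction. Reads were trimmed and mapped to GRCm38 (Trim Galore 0.4.3, HISAT2 2.0.5 and Bowtie2 2.3.2 in the submitters' processing notes) and quantified in SeqMonk; the authors left out 1 Δ/D329A RNA-seq library of low quality. Genes with at least 0.1 RPKM in 4 or more libraries were tested with limma 3.58.1 (R 4.3.3; Benjamini-Hochberg adjusted p under 0.01). Mean tile signal over gene bodies and promoter windows (1500 bp upstream and 500 bp downstream) was tested as log2(RPM + 0.1), adjusted p under 0.05, and against input with the animal as a block. Intervals are 95% confidence intervals. Whole reads were recovered from all 25965 genes (within 0.02 of a whole number, at moderate read numbers) for edgeR 4.0.16 and DESeq2 1.42.0 as alternatives. The fits were tested on simulated data, but no outcome is given here and no result rests on it. Members and lists were chosen with earlier results of these data known. All members were named, and from each pathway list the 3 genes with the smallest p, of which 1 is not reported here; likeness is Pearson r over genes of at least 1 RPKM. Read depth and the number of animals limit precision.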

Additional observations from a re-analysis of the deposited data

Results flagged for a closer look

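Among the 20 groups of libraries examined for the expression of the 10 receptor genes, 1 had a library far from the rest. Glp1r was at 2.83 RPKM in +/+ replicate 1 and at 1.04 to 1.34 RPKM in the other 4 +/+ libraries, and on the log2 scale the gap took up 0.749 of the range of the group. Chance alone puts about 1 in 20 groups past this limit. The same library had 54.3% of its reads on genes, the highest share of the 9; its part in the Glp1r value was not tested.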

How the results depend on the processing

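No receptor transcript was called under any alternative, and the counts of receptor promoters with H3K4me3 (10) and H3K27me3 (9) above input did not change under those run. Over all genes the RNA count of 19 became 11 with a filter at 0.5 RPKM, 34 with median centring, 32 with quantile normalization, 77 with edgeR and 251 with DESeq2, and ran from 1 to 19 leaving out each library. With only genes that had a read in at least 4 libraries, chosen after seeing the data, it was 15. For promoter H3K4me3 the count of 207 became 63 with median centring and 492 with the mitochondrial block (74 to 473 leaving out each animal), and that of receptor genes, 1, became 0 with centring, 0 as a ratio to input and 2 with the mitochondrial block (0 to 2). Gene body H3K4me3 (5) became 27 as a ratio, 25 in the other window, 170 with the replicate block and 9 with the mitochondrial block (3 to 56). Promoter H3K27me3 (226) became 37 as a ratio (82 to 447), and gene body H3K27me3 (1) became 3 in the other window and 0 with the replicate block (0 to 3). Promoter H3K36me3 (8) became 2 with centring, 0 as a ratio, 1 in the other window, 3 with the replicate block and 5 with the mitochondrial block (0 to 8). Receptor genes with H3K36me3 above input, 2, ranged from 1 to 2. The cause of these shifts was not tested.

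Of 41 receptor gene differences, 14 changed sign under at least 1 alternative. For RNA these were Mc3r (0.02), at −0.0052 with quantile normalization, −0.012 with edgeR, −0.0082 with DESeq2, −0.069 with the replicate block and −0.11 to 0.22 leaving out each library, and Insr (−0.074 to 0.035). For H3K4me3 they were Mc3r, at −0.18 as a ratio (−0.095 to 0.36), Insr, at 0.19 with centring and 0.00226 as a ratio (−0.12 to 0.16), and Npy5r, at −0.19 as a ratio and −0.20 with the mitochondrial block (−0.23 to 0.31). For H3K27me3 they were Insr, at −0.082 in the other window (−0.022 to 0.29), Npy1r, at −0.043 there (−0.19 to 0.23), Npy5r, at −0.049 as a ratio, Glp1r, at −0.24 as a ratio and −0.022 with the mitochondrial block (−0.091 to 0.12), Mc3r (−0.15 to 0.055) and Hcrtr1 (−0.30 to 0.00943). For H3K36me3 they were Mc3r, at 0.00225 in the other window, Npy2r, at 0.00140 with a pseudocount of 0.5, 0.13 as a ratio and 0.060 with the mitochondrial block (−0.20 to 0.20), and Hcrtr1, at −0.019 as a ratio.

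Samples of both genotypes with the same replicate number were compared by correlation, but not of the plain signals. For the marks the paper reports a strong correlation of these between the genotypes. The values were between −0.05 and 0.14 for RNA, −0.26 and 0.23 for H3K4me3, 0.01 and 0.08 for H3K27me3 and 0.02 and 0.04 for H3K36me3. For H3K27me3 and H3K36me3 each sample correlated best with its own number, though weakly, and for RNA and H3K4me3 most did not. Whether a shared number is a pairing was not settled by these values. With the replicate block the RNA count was 16, and Lepr H3K4me3 stayed called (limma adjusted p = 0.0108).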
